A study of Rattus norvegicus with 3 samples.

Results

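Chemokines, interleukins and a few related cytokines, with the receptors that bind them, were followed in RNA from rat spinal cord with and without a contusion. A gene was taken when its symbol began with a chemokine name (CCL, CXCL, CX3C or XCL), a chemokine receptor name (CCR, CXCR, XCR or ACKR) or IL and a number, or when it was TNF, LIF, LIFR, CSF1, CSF2RA, CSF2RB, CSF3R, IFNAR1, IFNAR2, IFNGR1 or IFNGR2. This gave 74 of the 12758 gene symbols in the table, namely 36 ligands, 35 receptors, 2 soluble inhibitors (IL1RN and IL18BP) and IL4I1, an amino acid oxidase that the symbol rule brings in by name only. RefSeq lists 150 protein-coding rat genes whose symbols fit, and the other 76 were not analysed here, among them CCR2, CXCL2, CXCL9, CXCR3, IL10, IL18R1, LIF and LIFR.

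The animals were female Sprague Dawley rats of 3 months, an outbred laboratory stock. SCI animals had the vertebral lamina removed at thoracic level 9 and then a contusion of 250 kdyne from an impactor, and No-SCI animals had the laminectomy and no contusion, so that both groups had surgery. At 24 h about 2 mm of cord was cut out at thoracic level 8, just rostral to the lesion, digested with a cold-active protease at 6 °C and spun, and the RNA was taken from the supernatant, which the study prepared as a fraction without cells and rich in axons. The labels analysed here give 2 No-SCI libraries and 1 SCI library, while the methods state 2 animals per condition.

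The table held 1 value per gene for each group, in FPKM (fragments scaled by transcript length and by the number mapped, so that genes can be compared). No value per library, no count and no depth behind a value was given, so neither a replicate error nor a test could be computed. Every difference below is therefore a difference between 2 group values, and a gene is called higher or lower when the ratio of SCI to No-SCI is at least 2-fold in size, which is 1 on the log2 scale.

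Chemokines are small secreted proteins that bind membrane receptors on leukocytes and glia and direct their movement along a gradient. Interleukins are a looser group of secreted signals, most of which bring together a pair of receptor chains. The IL-1 branch signals through MYD88, IRAK and TRAF proteins to NF-kB, and the branches that use gp130, the common gamma chain or the interferon receptors signal through JAK kinases and STAT factors. In the injured cord, astrocytes, microglia, oligodendrocytes, meningeal cells and invading leukocytes are all known sources of these signals or targets of them. Atypical receptors and decoys bind a ligand without the usual signal, and many of them take it out of circulation.

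Most of these genes were listed at low levels. Their medians in No-SCI and SCI were 4.17 and 5.53 FPKM, against 17.2 and 15.6 FPKM over all symbols, and 45 of the 74 lay under 10 FPKM in both groups. Of the 74 genes, 14 (18.9%) were higher by at least 2-fold after SCI, where 7.93% of all symbols were. Another 9 (12.2%) were lower by at least 2-fold, and here the share over all symbols was 12.1%. Without a replicate error neither share can be tested. Of these calls, 3 higher and 4 lower ones belong to genes with 1 value under 1.41 FPKM. At least 1 of the values of every symbol reaches this level, so the 2 values of such genes had to differ. The other 11 higher and 5 lower calls do not rest on this. In all, 9 of the 74 genes had a value under that level, against 421 of the 12758 symbols. Such forced differences were thus more frequent among the 74, and the shares above include them. Shares without such genes are not given for all symbols. Higher genes made up 60.9% of the calls among the 74 and 39.7% among all symbols. The median log2 ratio of all symbols was -0.12, and once every ratio was shifted by 0.12 to bring that median to 0 these shares became 68.2% and 49.8%. The median log2 ratio of the 74 genes was 0.12 as deposited, with 41 ratios above 0 and 33 below, and 47 were above 0 after the shift. The shift left 15 genes higher (20.3%) and 7 lower (9.46%) by at least 2-fold, against 9.53% and 9.59% of all symbols. IL17RD and CXCR6 were no longer called after the shift, and ACKR4 just passed 2-fold upward. The shift turned the sign of 6 genes with near equal values, CCL21, CCL5, CCL7, CCR10, IFNGR1 and IL33.

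**Figure D1:**
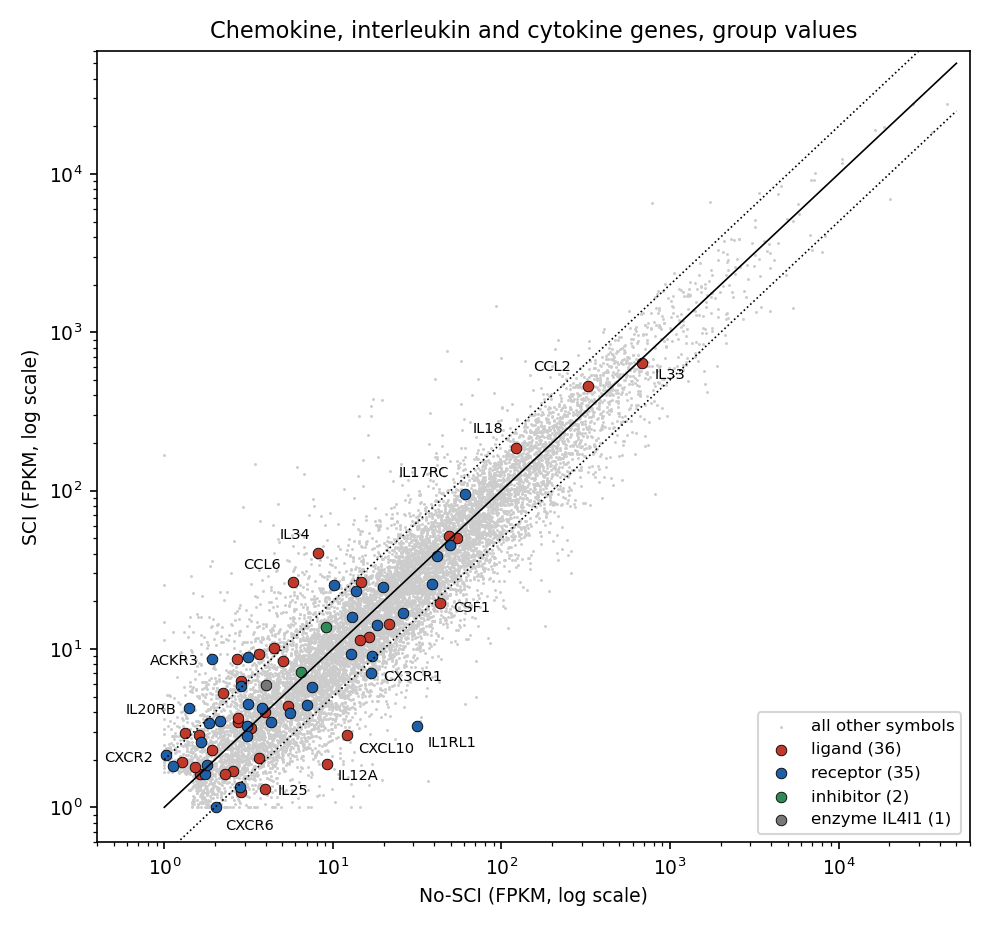
Level of each gene in No-SCI (horizontal axis, FPKM, log scale) against its level in SCI (vertical axis, FPKM, log scale), with each gray point standing for another gene symbol, the solid line for equal values and the dotted lines for 2-fold. IL33, CCL2 and IL18 sit alone at the upper end near the solid line, IL34 and CCL6 lie above the upper dotted line, and IL1RL1 lies farthest below the lower one at 31.7 and 3.27 FPKM.

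Among the CC chemokines CCL2, which draws monocytes, was by far the most abundant. It stood at 325 FPKM in No-SCI and 460 FPKM in SCI (log2 ratio 0.50), and so was already high in animals with laminectomy alone. CCL7, its neighbor in the genome and a ligand for some of the same receptors, stood at 54.4 and 50.3 FPKM, and the ratio of CCL2 to CCL7 went from 5.98 to 9.14. A further 4 CC ligands were called, and each of the 4 was higher in SCI. CCL6, made by macrophage and neutrophil lineages, went from 5.80 to 26.6 FPKM, which is 4.58-fold and 2.20 on the log2 scale. CCL3 went from 2.86 to 6.27 FPKM and CCL4 from 3.66 to 9.28 FPKM (log2 ratios 1.13 and 1.34). These are the macrophage inflammatory proteins, which attract monocytes and T cells. CCL12, a rodent relative of CCL2, went from 2.22 to 5.29 FPKM (log2 ratio 1.25).

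CCL6, CCL3 and CCL4 are adjacent genes of 1 cluster, and CCL9 lies next to CCL6 on the other side. The SCI value of CCL9 was the lower of its pair, at 2.55 and 1.70 FPKM, so that the ratio of CCL6 to CCL9 went from 2.28 to 15.7. CCL6 and CCL9 are close relatives, as are CCL2, CCL7 and CCL12, and how reads that fit more than 1 of them were shared out is not given in the sources used here, so these single values are uncertain. The other CC ligands showed smaller ratios. CCL27, better known from skin, stood at 21.5 and 14.3 FPKM, CCL20 at 3.64 and 2.05 FPKM and CCL5 at 3.28 and 3.18 FPKM. The CCR7 ligands CCL19 and CCL21, which guide dendritic cells and T cells, lay under 2 FPKM in both groups.

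Among the CXC chemokines the ligand with the largest ratio was CXCL12, which holds CXCR4-bearing cells in marrow and meninges. It went from 2.71 to 8.66 FPKM, which is 3.19-fold and 1.67 on the log2 scale. The neutrophil attractants with the ELR motif all had ratios above 0. CXCL1 went from 4.49 to 10.1 FPKM and was called higher with a log2 ratio of 1.17, whereas CXCL3 at 5.05 and 8.44 FPKM and CXCL6 at 1.92 and 2.30 FPKM stayed under 2-fold. CXCL1 and CXCL3 are near copies of each other, so their separate values are uncertain too.

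CXCL10 went the other way. This ligand of activated T cells, a typical target of interferon, stood at 12.2 FPKM in No-SCI and 2.87 FPKM in SCI, 4.24-fold lower and -2.08 on the log2 scale. It was the single called chemokine ligand of 23 with the lower value in SCI. CXCL11, the adjacent gene and a ligand of the same receptor, stood at 2.74 and 3.45 FPKM, and the ratio of CXCL10 to CXCL11 went from 4.45 to 0.832. Both genes lie within ART3 in the RefSeq annotation (GRCr8), and ART3 stood at 170 and 145 FPKM (log2 ratio -0.23). The libraries kept strand, but whether the counting used it is not given in the sources used here, so reads of ART3 within these genes could not be set apart. CXCL14, a ligand of epithelia and glia, was abundant and close to equal at 48.6 and 51.8 FPKM. CXCL16, made as a membrane protein by macrophages and endothelium, stood at 14.6 and 26.4 FPKM (log2 ratio 0.85). CXCL13, the B cell attractant, stood at 3.94 and 4.01 FPKM and CXCL17, a mucosal ligand, at 2.28 and 1.63 FPKM. CX3CL1, the neuronal fractalkine that microglia sense, stood at 16.4 and 11.9 FPKM (log2 ratio -0.47).

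The promoters of chemokines that moved in opposite directions are shown here, from RefSeq (GRCr8), as 250 bases before and 50 bases after the annotated start, read 5′ to 3′ on the strand of the gene. They were picked after the ratios were seen. They are those of the called chemokine with a lower value (CXCL10), of the called ELR ligand (CXCL1, added by name) and of the CC ligand with the largest ratio (CCL6). The promoter of CXCL12, the CXC ligand with the largest upward ratio, was searched as well and is not shown. Letters in capitals mark matches on either strand to NF-kB, to the interferon element GAAANNGAA, to the AP-1 element TGANTCA or to the STAT element TTCNNNGAA.
CXCL10, chr14:15988816-15989115, plus strand: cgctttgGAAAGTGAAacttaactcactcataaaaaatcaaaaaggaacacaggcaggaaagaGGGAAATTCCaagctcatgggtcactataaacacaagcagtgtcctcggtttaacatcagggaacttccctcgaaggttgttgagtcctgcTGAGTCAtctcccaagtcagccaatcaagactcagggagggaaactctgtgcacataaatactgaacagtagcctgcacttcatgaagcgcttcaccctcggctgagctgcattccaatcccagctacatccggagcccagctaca
CXCL1, chr14:17479272-17479571, minus strand: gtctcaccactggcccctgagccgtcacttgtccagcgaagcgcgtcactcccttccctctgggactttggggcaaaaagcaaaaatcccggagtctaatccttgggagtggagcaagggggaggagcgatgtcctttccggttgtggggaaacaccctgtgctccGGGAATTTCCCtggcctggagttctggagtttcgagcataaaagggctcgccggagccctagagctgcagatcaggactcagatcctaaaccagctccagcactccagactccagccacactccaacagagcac
CCL6, chr10:68883317-68883616, minus strand: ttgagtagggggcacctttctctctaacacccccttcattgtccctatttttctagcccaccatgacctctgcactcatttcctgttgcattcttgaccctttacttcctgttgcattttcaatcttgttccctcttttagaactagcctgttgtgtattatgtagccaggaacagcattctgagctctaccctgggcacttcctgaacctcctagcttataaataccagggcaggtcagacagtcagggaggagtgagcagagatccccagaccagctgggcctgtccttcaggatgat
CXCL10 held GAAAGTGAA at 243 bases before the start, the NF-kB match GGGAAATTCC at 187 and TGAGTCA at 96. CXCL1 held overlapping NF-kB matches at 84 and 83 bases before the start, GGGAATTTCC and GGAATTTCCC. CCL6 held no match to any of the 4 motifs in this window, and neither did CXCL12, which says nothing about the factors.

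A promoter of this length was given for 59 of the 74 genes. NF-kB matches were found in 13 of the 59 (22.0%), against 4.18% of all 33469 rat promoters of the same length, and AP-1 matches in 11 (18.6%) against 7.33%. The 59 were counted at 1 promoter per symbol, whereas the 33469 were not reduced in this way or filtered by gene type. The interferon element was found in 7 (11.9%) against 9.71% and the STAT element in 4 (6.78%) against 8.87%. Matches of different motifs overlapped in 0 of the 59. NF-kB matches were found in 2 of 11 higher genes, in 1 of 7 lower genes and in 10 of 41 genes under 2-fold.

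The interleukin ligands were led by alarmins, cytokines that are stored in cells and released when these are damaged. IL33, which oligodendrocytes and astrocytes hold in their nuclei, had the highest level of the 74 genes. It stood at 679 FPKM in No-SCI and 642 FPKM in SCI, above 98.0% and 97.8% of all symbols, and its log2 ratio was -0.08. IL18, cleaved by caspase-1 to its active form, stood at 121 and 187 FPKM (log2 ratio 0.63). IL33, CCL2 and IL18 together held 78.3% of the summed FPKM of the 36 ligands in No-SCI and 78.9% in SCI, so the other ligands were a small share of ligand RNA in either group.

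IL34 had the largest upward ratio of the 74 genes as deposited. This second ligand of CSF1R, which keeps microglia and Langerhans cells alive, went from 8.22 to 40.3 FPKM, 4.90-fold and 2.29 on the log2 scale. CSF1, the other ligand of CSF1R, went from 43.5 to 19.4 FPKM (log2 ratio -1.16). The ratio of IL34 to CSF1 thus went from 0.189 to 2.07, and the pair changed places in abundance. CSF1R itself, which the symbol rule leaves out, went from 47.4 to 21.1 FPKM (log2 ratio -1.17).

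The classical inflammatory cytokines were listed near the bottom of the table. IL1B stood at 2.73 and 3.64 FPKM, IL6 at 1.61 and 2.87 FPKM and TNF at 1.51 and 1.80 FPKM, none of them 2-fold apart. IL1A, next to IL1B in the genome and an alarmin as well, went from 2.83 to 1.25 FPKM (log2 ratio -1.18). IL12A, a chain of IL-12 and IL-35, went from 9.20 to 1.89 FPKM (log2 ratio -2.28), and IL25, a type 2 cytokine, from 3.96 to 1.30 FPKM (log2 ratio -1.60). IL17B was the other interleukin called higher, at 1.32 and 2.96 FPKM (log2 ratio 1.16). IL16, a ligand of CD4, stood at 14.5 and 11.4 FPKM and IL11, a gp130 cytokine, at 5.41 and 4.35 FPKM.

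Of the soluble inhibitors, IL1RN was listed above the ligands it blocks. IL1RN, the IL-1 receptor antagonist, stood at 9.13 and 13.8 FPKM (log2 ratio 0.60). Its ratio to IL1B moved little, from 3.34 to 3.79, while its ratio to IL1A went from 3.22 to 11.1. IL18BP, which traps IL-18, stood at 6.48 and 7.15 FPKM, far under IL18. The oxidase IL4I1 stood at 4.01 and 5.94 FPKM.

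**Figure D2:**
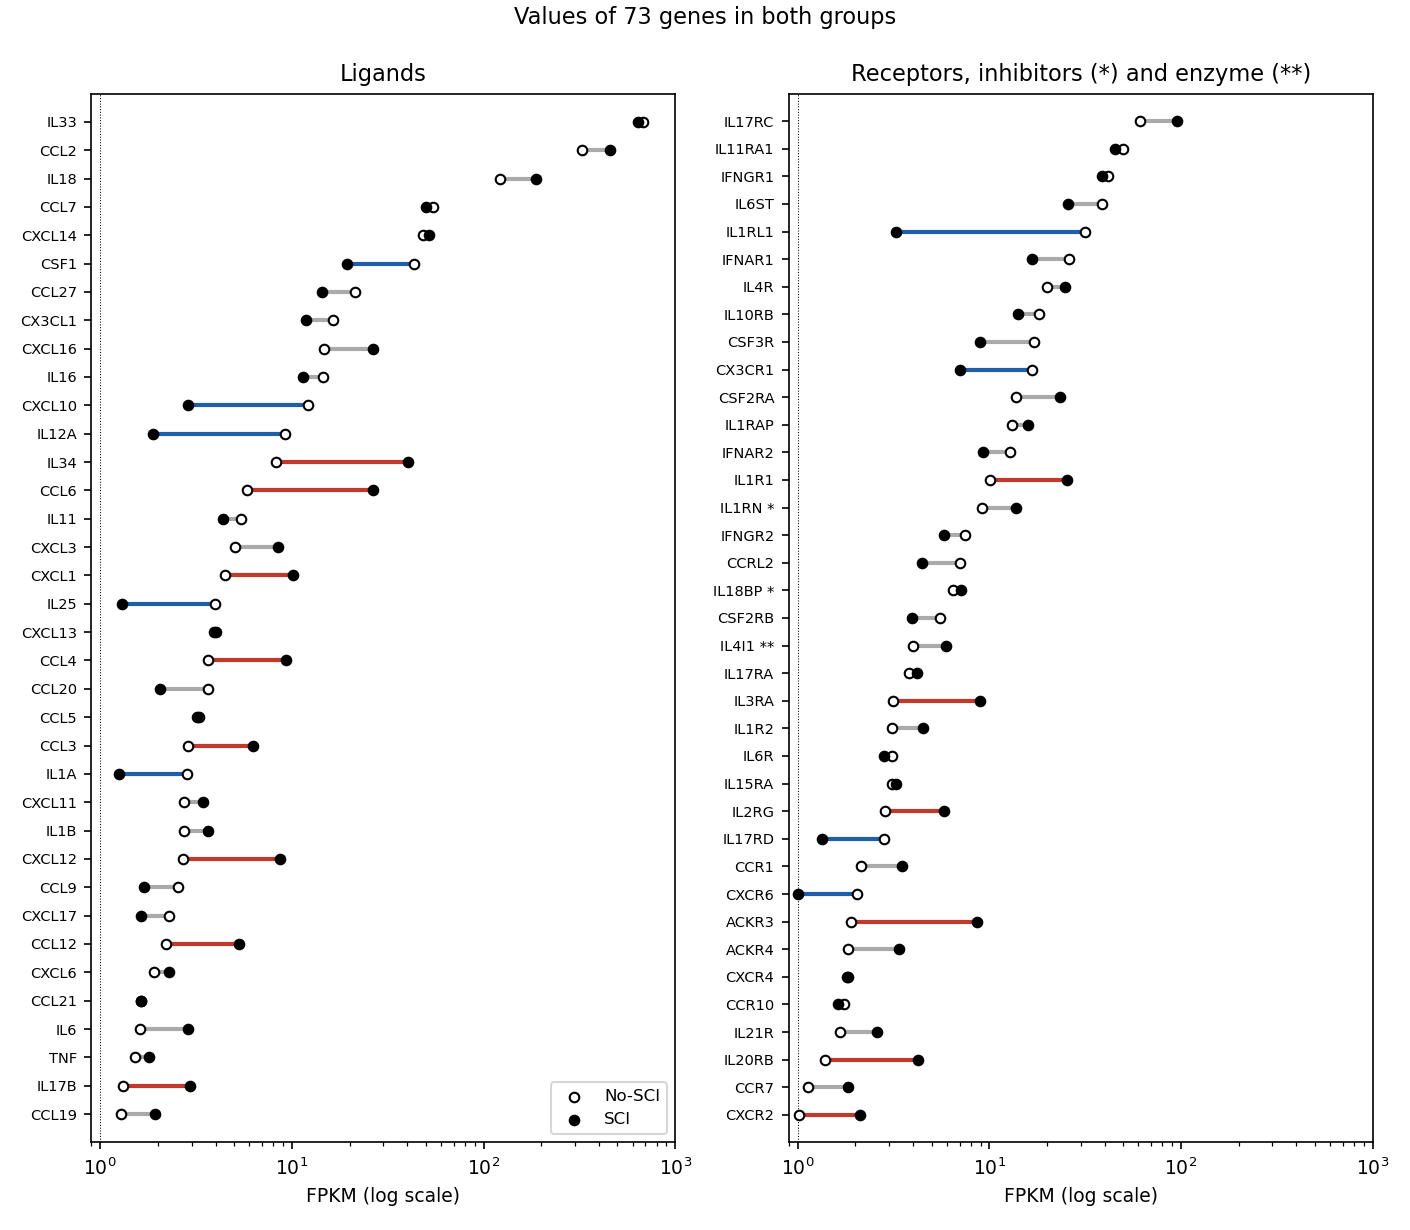
Value of 73 of the 74 genes in No-SCI (open circles) and SCI (filled circles) on a log axis in FPKM, ordered by the No-SCI value, with ligands on the left and the other genes on the right. Red bars join values at least 2-fold higher in SCI, blue bars values at least 2-fold lower and gray bars the rest, and the longest bar is that of IL1RL1, from 31.7 to 3.27 FPKM.

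Among the receptors the largest deposited ratio in either direction belonged to IL1RL1, or ST2, the receptor chain for IL33. IL1RL1 stood at 31.7 FPKM in No-SCI and 3.27 FPKM in SCI, 9.69-fold lower and -3.28 on the log2 scale. It went from above 64.1% of all symbols to above 14.3% of them. Its ligand IL33 was almost level over the same comparison, so the ratio of IL33 to IL1RL1 went from 21.4 to 196. Symbols do not separate the soluble decoy form of IL1RL1 from the membrane form. The IL1RL1 promoter (RefSeq, GRCr8, chr9:50203388-50203687, plus strand), shown because this gene had the largest ratio, held no match to any of the 4 motifs.
IL1RL1: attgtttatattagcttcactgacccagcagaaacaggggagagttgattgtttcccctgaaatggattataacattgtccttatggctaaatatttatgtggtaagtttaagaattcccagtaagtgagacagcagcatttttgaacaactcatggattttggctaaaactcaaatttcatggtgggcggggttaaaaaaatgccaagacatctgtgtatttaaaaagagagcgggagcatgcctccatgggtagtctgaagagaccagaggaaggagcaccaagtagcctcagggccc

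The receptor for IL-1 itself moved the other way. IL1R1 went from 10.1 to 25.4 FPKM, 2.50-fold and 1.32 on the log2 scale, and the ratio of IL1RL1 to IL1R1 went from 3.13 to 0.129. IL1RAP, the accessory chain that both of these receptors need, was nearly level at 13.1 and 16.0 FPKM. IL1R2, a decoy for IL-1, stood at 3.13 and 4.49 FPKM (log2 ratio 0.52). Within the IL-1 system IL1B, IL1RN, IL1RAP and IL1R2 thus stayed under 2-fold, while IL1R1 was called higher. IL1A, at 1.25 FPKM in SCI, was listed through its No-SCI value alone, and its call was lost with a pseudocount of 1 (log2 ratio -0.77).

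Receptor chains of other interleukins were mixed. IL3RA, the IL-3 binding chain, went from 3.15 to 8.94 FPKM (log2 ratio 1.51). IL2RG, the common gamma chain, went from 2.86 to 5.84 FPKM (log2 ratio 1.03). IL20RB went from 1.40 to 4.26 FPKM (log2 ratio 1.61), and IL17RD, which restrains fibroblast growth factor signals, from 2.82 to 1.34 FPKM (log2 ratio -1.07). IL17RC, a chain of the IL-17 receptor, was the most abundant receptor in both groups at 61.0 and 95.9 FPKM and made up 14.1% and 22.1% of the summed receptor FPKM. IL11RA1 stood at 49.6 and 45.2 FPKM, IL4R at 20.0 and 24.7 FPKM and IL10RB at 18.2 and 14.1 FPKM. IL6R stood at 3.10 and 2.82 FPKM, and IL6ST, the gp130 chain that IL-6 and IL-11 share, at 38.7 and 25.9 FPKM (log2 ratio -0.58). The remaining chains were low, with IL17RA at 3.82 and 4.22 FPKM, IL15RA at 3.10 and 3.27 FPKM and IL21R at 1.66 and 2.59 FPKM. Both chains of the IL-6 receptor had their lower value in SCI, by less than 2-fold.

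Of the 7 interferon and colony stimulating factor receptors, 0 were called in either direction. Their median log2 ratio was -0.47 and 1 of the 7 had a ratio above 0, where 43.6% of all symbols did. IFNAR1 stood at 25.9 and 16.8 FPKM and IFNAR2 at 12.9 and 9.32 FPKM, the pair that binds type I interferons. IFNGR2 stood at 7.50 and 5.78 FPKM and IFNGR1 at 41.5 and 38.6 FPKM. IFNAR1, IFNAR2, IFNGR2 and IL10RB lie side by side in the genome, and their log2 ratios ran from -0.63 to -0.37. CSF3R, the receptor that neutrophils use for G-CSF, came closest to a call at 17.1 and 8.97 FPKM and -0.93 on the log2 scale. CSF2RA was the exception at 13.8 and 23.3 FPKM (log2 ratio 0.76), while CSF2RB, its partner chain, stood at 5.56 and 3.94 FPKM.

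The chemokine receptors were the least abundant class, with medians over 11 genes of 1.91 FPKM for No-SCI and 3.40 FPKM for SCI. CX3CR1, the fractalkine receptor of microglia and patrolling monocytes, was the highest of them in No-SCI and went from 16.8 to 7.06 FPKM (log2 ratio -1.25). ACKR3, which scavenges CXCL12, went from 1.91 to 8.66 FPKM (log2 ratio 2.18), and was then the highest. CXCR4, the signaling receptor for CXCL12, stood at 1.80 and 1.84 FPKM. CXCR2, through which neutrophils sense CXCL1, went from 1.02 to 2.13 FPKM (log2 ratio 1.06). CXCR6 stood at 2.03 FPKM in No-SCI and was listed at 1 FPKM, the lowest value of the table, in SCI, and its fold is left out. CXCR6 lies within FYCO1, which stood at 31.9 and 12.7 FPKM. CCR1 stood at 2.15 and 3.50 FPKM, CCR7 at 1.13 and 1.83 FPKM and CCR10 at 1.75 and 1.62 FPKM. The atypical receptors ACKR4 and CCRL2 stood at 1.84 and 3.40 FPKM and at 7.02 and 4.44 FPKM.

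Ligands and receptors were then set side by side. Of 36 ligands, 8 (22.2%) were higher and 5 (13.9%) lower by at least 2-fold. Of 35 receptors, 6 (17.1%) were higher and 4 (11.4%) lower. Over all symbols 7.93% were higher and 12.1% lower, so the lower shares were close to that of all symbols. Median log2 ratios were 0.17 for ligands and 0.03 for receptors, a gap of 0.14. The gap kept its sign when 1 was added to or subtracted from every value (0.11 and 0.21) and was 0.55 among genes with a mean of at least 5 FPKM, where the medians were 0.30 for 18 ligands and -0.25 for 18 receptors. It depended on the family. For 23 chemokine ligands and 11 chemokine receptors the gap was 0.23, whereas for 11 interleukin ligands and 17 interleukin receptors it was -0.37, with medians of -0.08 and 0.29. Summed FPKM of the ligands went from 1438 to 1634, and that of the receptors from 433.5 to 433.7. Genes are not replicates, and these gaps carry no test.

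**Figure D3:**
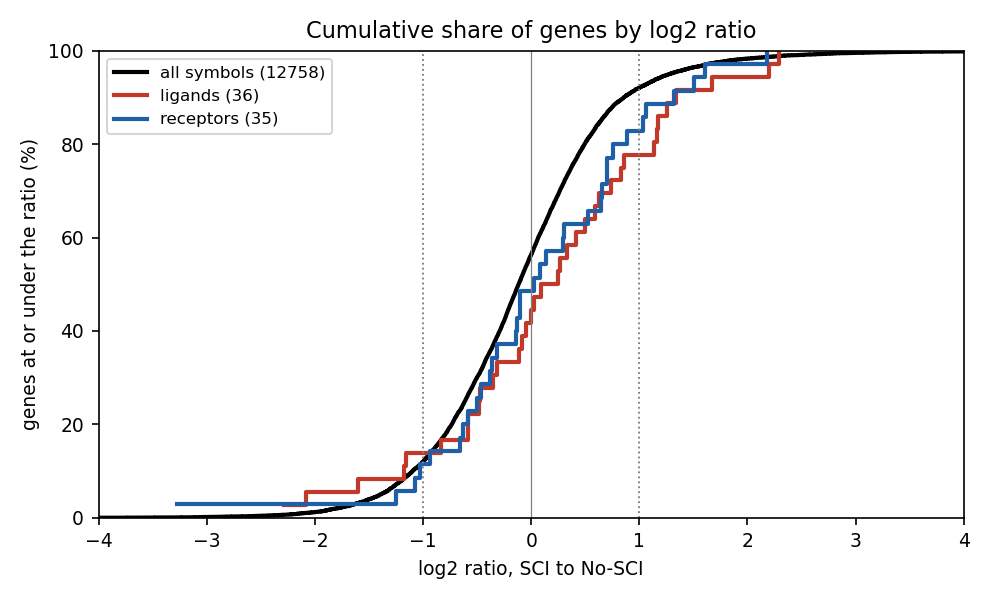
Cumulative share of genes (vertical axis, percent) at or under each log2 ratio of SCI to No-SCI (horizontal axis), for all 12758 symbols, 36 ligands and 35 receptors, with dotted lines at 2-fold. At the dotted line for 2-fold upward both colored curves lie under the black one, with medians of 0.17 for ligands and 0.03 for receptors against -0.12 for all symbols.

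Of the textbook ligand and receptor pairs looked up, 25 had a value for both genes. In 15 pairs ligand and receptor had ratios of the same sign. Both were called higher in 2 pairs, CXCL12 with ACKR3 and CXCL1 with CXCR2, though CXCR2 at 1.02 FPKM in No-SCI was listed through its SCI value alone. Both genes were called lower in CSF1 with CSF1R. The called genes went in opposite directions in IL34 with CSF1R and in IL1A with IL1R1, where IL1A was listed through its No-SCI value alone. CXCL16 had a log2 ratio of 0.85 while its receptor CXCR6 was listed at the lowest value in SCI. For CX3CL1 and CX3CR1 both values were the lower ones in SCI, with log2 ratios of -0.47 and -1.25. TNF was near the bottom of the table, and its receptor TNFRSF1A stood at 25.3 and 40.6 FPKM (log2 ratio 0.68). CCR2, the main receptor for the abundant CCL2 and CCL7, was not analysed here, nor were CXCR3 for CXCL10 and IL18R1 for IL18. Pairs share genes and so are not independent of each other.

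The signaling genes that act after these receptors showed few values 2-fold apart. All 11 JAK and STAT genes of the list looked up had values, 0 of the 11 were called, and their median log2 ratio was -0.32. Over all symbols 7.93% were higher and 12.1% lower. STAT2, which type I interferon receptors use, stood at 10.1 and 5.37 FPKM and its kinase TYK2 at 23.4 and 12.9 FPKM (log2 ratios -0.91 and -0.86). STAT3, the factor used by gp130, stood at 37.2 and 29.0 FPKM, while JAK2 stood at 6.85 and 10.7 FPKM. Of 12 listed genes of the SOCS and PIAS families and phosphatases, 1 (8.33%) was higher and 1 (8.33%) lower, with a median of -0.16. SOCS1, which blocks JAK kinases, went from 1.37 to 4.06 FPKM (log2 ratio 1.57). It lay under 1.41 FPKM in No-SCI and so was listed through its SCI value alone. SOCS3, induced by gp130 signals, stood at 35.9 and 67.7 FPKM (log2 ratio 0.92). The phosphatase gene PTPN11 went from 182 to 74.6 FPKM (log2 ratio -1.29).

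Of 31 genes that carry IL-1 and TNF signals to NF-kB, 3 (9.68%) were higher and 1 (3.23%) lower, against 7.93% and 12.1% of all symbols. Their median log2 ratio was -0.13, close to that of all symbols. TRAF1 went from 2.33 to 7.36 FPKM and NFKBIA from 24.2 to 53.5 FPKM (log2 ratios 1.66 and 1.14), and both are known as NF-kB targets that feed back on the pathway. SIGIRR, an inhibitory relative of the IL-1 receptor, went from 6.35 to 13.3 FPKM (log2 ratio 1.07). TOLLIP, which restrains IRAK1, went from 90.8 to 38.2 FPKM (log2 ratio -1.25), and IRAK1 itself stood at 143 and 82.9 FPKM.

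Markers of the cells that make or sense these signals moved with the groups, and the supernatant held RNA of several cell types. The marker lists were chosen with earlier results of these data known, so their counts are not independent evidence. In bulk RNA fewer cells of a type and less RNA per cell cannot be told apart. The counts below stand beside 7.93% higher and 12.1% lower over all symbols. Of 22 listed meningeal fibroblast markers 18 were higher by at least 2-fold and 0 lower. Their summed level went from 216 to 2009 FPKM. Among them OSR1 went from 3.43 to 148 FPKM and MGP from 47.5 to 757 FPKM. Some of the 18 had a No-SCI value under 1.41 FPKM and were listed through their SCI value alone. Of 15 monocyte markers looked up 10 had values, and CCR2 was not among them. Of the 10, 5 were higher and 1 lower, with a sum of 311 FPKM in No-SCI and 854 FPKM in SCI. Most of that sum was LYZ2 at 200.5 and 611 FPKM, with CD14 at 18.1 and 60.9 FPKM. The lower marker was LY6C (log2 ratio -1.93). ITGAL and VCAN also had their lower value in SCI, by less than 2-fold (log2 ratios -0.42 and -0.28), while 7 of the 10 had ratios above 0. CXCL12, IL34, ACKR3, IL1R1 and the 4 called CC ligands had their higher values in the same group as most of these markers. The part of either cell type in these genes was not tested.

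Neutrophil markers were partly listed. Of 20 looked up 8 had values, 4 of the 8 were higher, and 0 were lower, with a sum of 146 and 219 FPKM. Of the 4, CXCR2 at 1.02 FPKM and PGLYRP1 at 1.23 FPKM in No-SCI were listed through their SCI values alone, and 2 were higher among markers with a mean of at least 5 FPKM. S100A8 went from 32.4 to 94.1 FPKM and S100A9 from 14.3 to 46.6 FPKM, while LCN2 stood at 39.4 and 21.8 FPKM. CXCR2 and CSF3R are themselves on this list and had ratios of opposite sign, and the part of neutrophils in CXCL1 and CXCR2 was not tested. Lymphocyte markers were sparse, with 5 of 20 listed, 0 called and a sum of 16.7 and 20.2 FPKM. The 23 microglia and macrophage markers were mixed, with 4 higher, 3 lower and a sum of 1433 and 1596 FPKM. CD68 went from 9.89 to 26.6 FPKM, whereas P2RY12 went from 21.5 to 10.8 FPKM, and CX3CR1 and CSF1R, which are on this list, also had their lower value in SCI. Of 15 endothelial markers 4 were higher and 1 lower, with a sum of 116 and 169 FPKM. CDH5 went from 3.85 to 11.7 FPKM and SLCO1A4 from 7.15 to 2.77 FPKM.

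Markers of resident neural cells had mostly lower values in SCI, as IL1RL1, CSF1 and CXCL10 did. Of 20 astrocyte markers looked up 14 had values, and GFAP, AQP4, S100B and SLC1A3 were not analysed here. Of the 14, 0 were higher and 8 lower, with a median log2 ratio of -1.06 and summed levels of 26341 and 21780 FPKM. APOE alone stood at 10448 and 11804 FPKM. Of 18 oligodendrocyte markers, without MBP, which was not analysed here, 0 were higher and 11 lower. Their median was -1.44 and their sums were 90468 and 49101 FPKM. MOBP alone stood at 44200 and 27648 FPKM, so that a fraction prepared as axonal was rich in myelin RNA. Of 17 neuronal and axonal markers 0 were higher and 7 lower, with a median of -0.81 and sums of 5323 and 3487 FPKM, and NEFM and SNAP25 were not analysed here. IL33, which is known from these same glial cells, had a log2 ratio of -0.08 in the same comparison. The part of resident cells in the values of IL1RL1, CSF1 and CXCL10 was not tested.

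**Figure D4:**
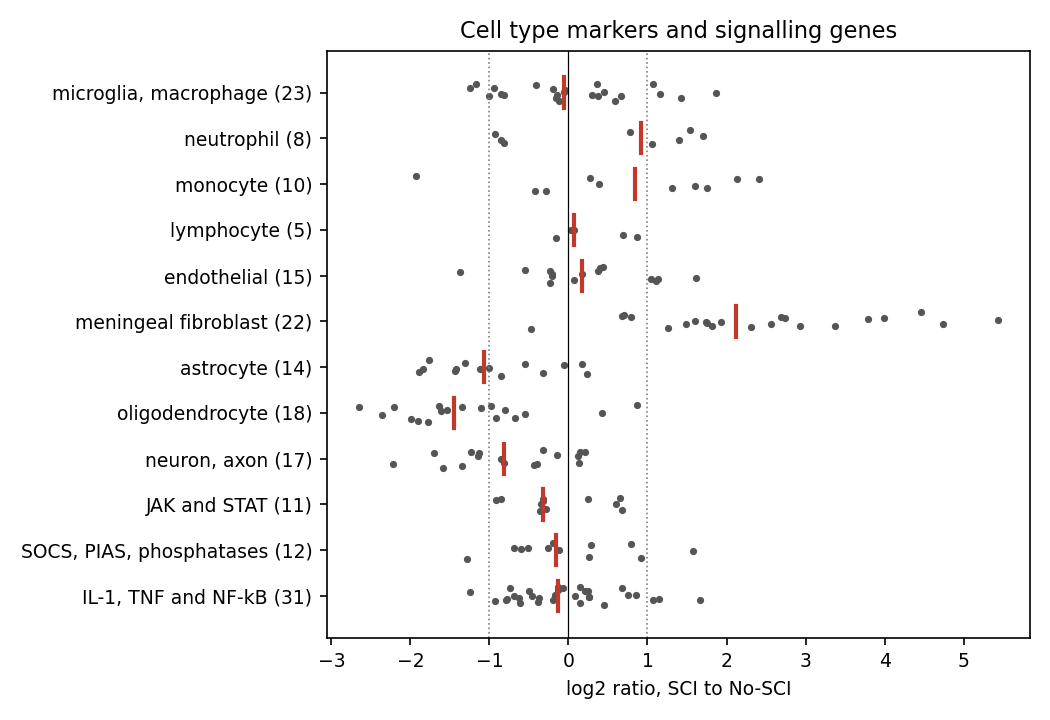
Log2 ratio of SCI to No-SCI (horizontal axis) of each gene in 9 lists of cell type markers and 3 lists of signaling genes, with the number of genes in parentheses, a red bar at the median of each list and dotted lines at 2-fold. Meningeal fibroblast markers lie farthest to the right with a median of 2.12, and astrocyte, oligodendrocyte and neuronal markers lie to the left with medians of -1.06, -1.44 and -0.81.

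Low values set the limit of these comparisons. The lowest value in either group was exactly 1 FPKM, listed 18 times for No-SCI and 37 times for SCI. The digits of the values change at 2 and at 11 FPKM, where they would had 1 been added to every value after rounding, but the change is partial. In No-SCI, for example, 86.9% of values between 1 and 2 FPKM carried 6 decimals against 37.6% of those between 2 and 3 FPKM. An added 1 would shrink the ratio of a low gene, and ratios with 1 subtracted are given for this reason. With 1 subtracted 20 genes were higher and 12 lower of the 73 that kept a value above 0 in both groups, which is 27.4% and 16.4%, against 10.4% and 16.2% of all symbols. IL34 moved from 2.29 to 2.44 on the log2 scale, CCL6 from 2.20 to 2.41, CXCL10 from -2.08 to -2.58 and IL1RL1 from -3.28 to -3.76. Genes near the lowest value moved further, with CXCR2 from 1.06 to 5.91, CCR7 from 0.70 to 2.72, IL1A from -1.18 to -2.87, IL25 from -1.60 to -3.29 and IL20RB from 1.61 to 3.04. Subtracting the same amount from both values cannot turn a direction, and the size of these ratios was not kept. A further 6 genes passed 2-fold upward on this scale, IL6 at 1.60, ACKR4, CCL19, CCR1, CCR7 and IL21R, and 4 passed it downward, CCL20, CCL9, CSF3R and CXCL17.

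No symbol of the table had both values under 1.41 FPKM, so a gene with 1 value under it was listed through its other, higher value and had to differ. This held for 9 of the 74 genes and for 421 of all 12758 symbols. The 9 were CXCR2, IL17B and IL20RB among the higher ones, CXCR6, IL17RD, IL1A and IL25 among the lower ones, and CCL19 and CCR7. Of the 14 higher genes, 10 had both values at 2 FPKM or more, and of the 9 lower genes, 4 had. Among the 38 genes with a mean of at least 5 FPKM, 8 were higher and 5 lower, where the shares of all symbols at that level were 7.61% and 12.1%. This mean takes in both groups, so a called gene could pass through its higher value alone. ACKR3 at 1.91 FPKM in No-SCI and IL12A at 1.89 FPKM in SCI were among those that did. Among the 36 genes under that mean, 6 were higher and 4 lower, where these shares were 9.17% and 11.8%.

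**Figure D5:**
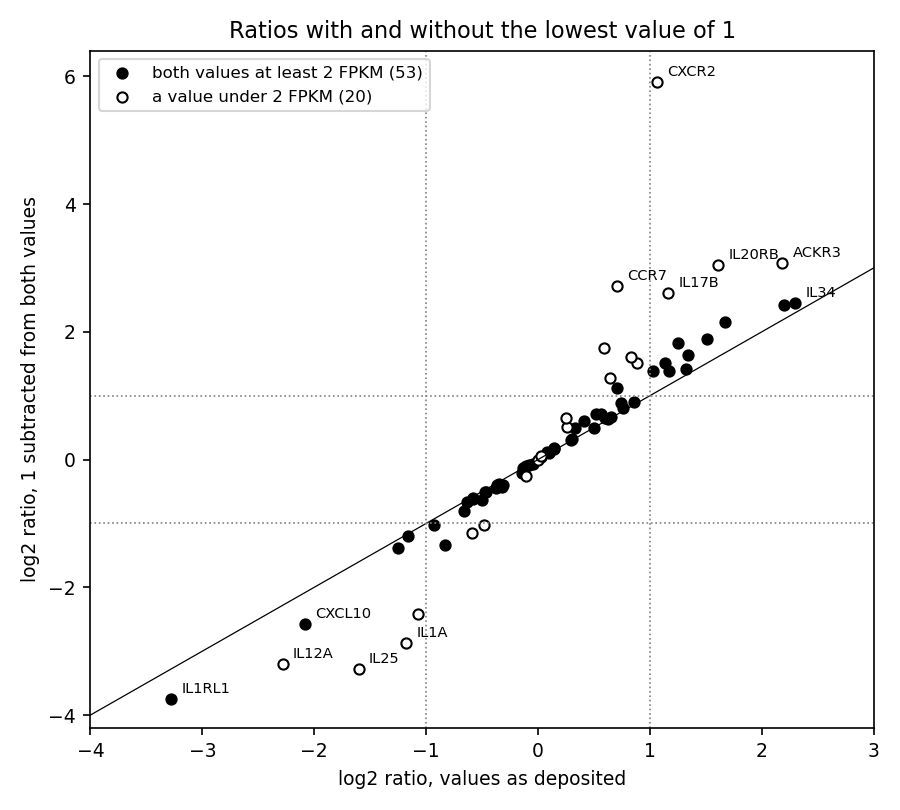
Log2 ratio of SCI to No-SCI with 1 subtracted from both values (vertical axis) against the log2 ratio of the values as deposited (horizontal axis) for the 73 genes that have both, with filled circles for genes whose values are both at least 2 FPKM and open circles for the rest. Filled circles stay near the solid line of equal ratios, and the open circle farthest from it is CXCR2 at 1.06 and 5.91.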

How the data were processed

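Stranded libraries were made from total RNA of the supernatant after ribosomal RNA removal. Per the study's methods and the submitters' processing notes, the authors downsampled reads to the shallowest sample, aligned them to rn6 with STAR 2.5.4b and ran Cuffdiff 1.3.0. The deposited values are FPKM, 1 per group, from upper quartile normalization. The table's own fold changes, p-values and q-values were not used. The methods state 50000000 reads per sample, but the depth behind a value is unknown, so no interval, error or test was computed.

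Log2 ratios of SCI to No-SCI were taken without a pseudocount (Python 3.11.15, pandas 2.3.3). Of 12771 entries, 13 symbols were listed 2 times, 0 of them members, and the entry with the larger mean was kept. All members could be named, apart from 1 gene that is not reported here. Of the other lists, the 3 genes with the highest mean and the 3 with the largest ratio in each direction could be, as could pair partners. Genes overlapping a member (ART3, FYCO1 and those named next) were named after their values were seen. IL17RD shared 71.3% of its span with ARHGEF3 (18.3 and 14.4 FPKM in No-SCI and SCI). IL4I1 shared 62.1% with NUP62 (76.3 and 68.2 FPKM) and CCR10 46.5% with CNTNAP1 (20.8 and 6.68 FPKM). ACKR4 lay within ACAD11 (10.5 and 6.44 FPKM). Smaller overlaps with listed genes were found for IL18 and IL6R, among others. Reads of these partner genes could not be set apart either. Members and lists were chosen with earlier results of these data known. Alternatives were other pseudocounts, scalings, filters, folds and role classes. Symbols and promoters came from RefSeq GRCr8, and no coordinates were converted.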

Additional observations from a re-analysis of the deposited data

How the results depend on the processing

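The number of genes higher by at least 2-fold went from 14 to 9 (12.2%) with a pseudocount of 1, against 6.38% of all symbols. With a mean of at least 5 FPKM the numbers higher and lower were 8 and 5 (21.1% and 13.2%, against 7.61% and 12.1%). At 1.5-fold they were 26 and 14 (35.1% and 18.9%, against 16.9% and 26.3% of all symbols), and at 3-fold 5 and 4 (6.76% and 5.41%, against 3.17% and 3.27%), so that the lower share was under that of the table at 1.5-fold and above it at 3-fold. With 1 subtracted the numbers were 20 and 12 of 73 (27.4% and 16.4%, against 10.4% and 16.2% of all symbols). The gap between ligand and receptor medians, 0.14 as reported, was 0.55 with a mean of at least 5 FPKM, 0.28 without atypical receptors, decoys and inhibitors, and -0.37 for interleukins alone. With 1 subtracted 1 JAK or STAT gene was lower. Among the SOCS, PIAS and phosphatase genes, 2 were higher once the median or the upper quartile was matched, and 0 with a mean of at least 5 FPKM. No called gene changed its direction under any scaling or pseudocount tried, and none could have. An amount added to or subtracted from both values cannot turn a sign, and the scalings moved every log2 ratio by at most 0.12. Setting the median ratio of all symbols to 0 turned the sign of CCL21, CCL5, CCL7, CCR10, IFNGR1 and IL33. Leaving out libraries was not possible with 1 value per group. No paired analysis was possible because the table gives no value per library. Depth behind a value is unknown, and values near 1 FPKM limit the size of a ratio.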
